A study of Mus musculus with 30 samples.

Results

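The genes described here are 39 genes of DNA replication and S phase, a list of named genes taken across all 8 groups of the series. They were matched by symbol among the 49089 Ensembl gene identifiers counted in each sample, and all 39 were found and passed the filter on low counts. RNA-seq was carried out on 30 samples of AML12 cells, an immortalized mouse hepatocyte line. Control cells received non-silencing siRNA, FoxK1 KD and FoxK2 KD cells received siRNA against 1 of the forkhead transcription factors FoxK1 and FoxK2, and DKD cells received both. The knockdowns were transient. All cells were starved of serum overnight in DMEM with BSA, and each genotype was then collected untreated (basal) or 6 h after 100 nM insulin. The labels give the basal samples a treatment time of 0, while the treatment text describes a mock treatment, so it is not known whether basal cells were kept for the same 6 h. There were 4 samples per group, except Control and DKD after insulin with 3 each. Nothing in the labels says that replicates came from separate days or passages, so p-values measure the spread between these samples, which may be technical.

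DNA replication is prepared in G1, when the origin recognition complex, Cdc6 and Cdt1 load the ring-shaped Mcm2 to Mcm7 helicase onto chromatin. At the start of S phase Cdc45 and the GINS complex join the ring and activate it, primase and DNA polymerase alpha start new strands, and polymerases delta and epsilon extend them with the sliding clamp Pcna, which is loaded by replication factor C. Ribonucleotide reductase and thymidylate synthase supply the deoxynucleotides. Many of these genes are transcribed in late G1 under E2F transcription factors, and in resting liver cells they are low and rise when cells re-enter the cycle.

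Promoter sequences were taken from RefSeq (GRCm38.p6), as windows from 250 bases before to 50 bases after each annotated start. Windows were found for 32 of the 39 genes, 39 windows in all, because some genes have several starts. The 8-letter E2F patterns TTTCCCGC, TTTCGCGC, TTTGCCGC and TTTGGCGC, searched on both strands, were in 13 of these windows (33.3%), compared to 2.26% of all 32851 RefSeq windows and 4.1% of the 11213 windows of genes tested here. The forkhead pattern GTAAACA, searched the same way, was in 2 member windows (5.13%, Mcm7 and Cdc45), compared to 3.65% of all windows. CCAAT was in 64.1% of member windows and in 37.4% of all windows. A match of letters is a description of the window and no evidence of binding. The bases before the start of 4 genes are shown because these genes carry the results below: Cdc6 had the largest insulin response, Mcm5 and Uhrf1 were lower in FoxK1 KD cells in every version of the fit with 1 sample left out, and Mcm6, with 3 E2F matches, of which 2 overlap, had a fold change after insulin below that of Mcm5, a difference that was not tested. The RefSeq starts of Cdc6 and Uhrf1 lie inside the genes as GENCODE draws them, so that the windows shown for these 2 lie downstream of the GENCODE start. Each is written 5′ to 3′ in the direction of the gene and ends at the base before the RefSeq start, with E2F matches in capitals. Overlapping matches form 1 run of capitals.
Cdc6 (chr11:98907991-98908150, plus strand): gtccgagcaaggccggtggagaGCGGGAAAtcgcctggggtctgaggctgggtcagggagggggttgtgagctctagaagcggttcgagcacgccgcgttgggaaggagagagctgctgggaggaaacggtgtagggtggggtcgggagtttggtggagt
Mcm5 (chr8:75109309-75109508, plus strand): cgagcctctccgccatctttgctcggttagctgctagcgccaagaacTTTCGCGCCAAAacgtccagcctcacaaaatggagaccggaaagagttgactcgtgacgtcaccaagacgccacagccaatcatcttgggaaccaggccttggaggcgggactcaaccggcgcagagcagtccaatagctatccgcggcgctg
Mcm6 (chr1:128359706-128359905, minus strand): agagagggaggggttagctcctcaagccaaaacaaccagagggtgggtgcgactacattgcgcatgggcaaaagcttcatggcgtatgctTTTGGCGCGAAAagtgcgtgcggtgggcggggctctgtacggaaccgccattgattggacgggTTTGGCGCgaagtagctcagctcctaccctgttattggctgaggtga
Uhrf1 (chr17:56304113-56304312, plus strand): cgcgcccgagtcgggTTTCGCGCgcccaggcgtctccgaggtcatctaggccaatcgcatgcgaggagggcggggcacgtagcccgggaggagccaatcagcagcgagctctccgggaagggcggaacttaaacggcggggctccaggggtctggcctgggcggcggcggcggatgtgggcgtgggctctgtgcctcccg

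Samples held 2141460 to 5668270 counts, of which 6880 to 19551 fell on the 39 genes, and the lowest count of any member in any sample was 14 (Gins3). Levels are given as CPM, counts divided by the library size after TMM adjustment and multiplied by a constant. Foxk1 was 66.2 to 88.4 CPM in Control basal, 27.4 to 42.009 in FoxK1 KD basal and 42.9 to 49.7 in DKD basal samples, and after insulin 49.043 to 57.8, 27.998 to 35.3 and 30.5 to 40.9 CPM. Foxk2 was 133 to 149.7 CPM in Control basal, 42.9 to 50.6 in FoxK2 KD basal and 41.9 to 54.7 in DKD basal samples, and after insulin 157 to 168, 62.05 to 68.9 and 59.028 to 67.6 CPM. In FoxK1 KD samples Foxk2 was 100.7 to 128.2 CPM at basal and 123.2 to 149.6 CPM after insulin, below every Control sample in both states. In FoxK2 KD samples Foxk1 was 58.03 to 83.7 CPM at basal and 48.8 to 57.96 CPM after insulin, overlapping Control in both. The labelled cell type was checked on 18 hepatocyte markers. Hnf4a (89.6 to 152 CPM), Apob, Krt8 and Krt18 were expressed, Alb was low (2.50 to 65.2 CPM), and 6 of the 18, among them Apoa1, Cyp2e1 and Cps1, had means under 1 CPM. Of 5 bile duct markers Krt7, Krt19, Sox9 and Spp1 were also expressed and Epcam was at 0 in every sample, and all 14 stellate and endothelial markers had means under 1 CPM.

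Some samples stood apart in ways that touch the results. Control basal replicate 1 differed from the other 3 samples of its group over all genes, with a chi-square per degree of freedom of 15.7 to 22.1 compared to at most 6.41 in any other pair within a group. It also stood apart for several members: E2f1 was 62.7 CPM in it and 22.6 to 29.8 in the other 3, Cdt1 182 against 85.7 to 111, and Gins2 17.3 against 3.93 to 7.001. Control basal replicate 4 was the lowest of its group for 24 of the 39 members. Finally, 12 libraries (Control, FoxK1 KD and FoxK2 KD basal) differed from the other 18 in 52 genes that were lower in all 12 (10 of them pseudogenes) and 83 that were higher in all 12, and no member was among either. The labels name no batch. Insulin against basal in every genotype but DKD, and DKD against Control at basal, cross between these sets of libraries, so that in those comparisons treatment and set cannot be told apart, while the insulin response of DKD cells and all the other comparisons of 2 groups stay within a set.

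In Control basal cells the levels per kilobase of exonic length spanned from 66.1 CPM per kb for Rrm2, the small subunit of ribonucleotide reductase, to 2.07 for Gins2. That length joins all annotated exons of a gene and can exceed the transcript expressed, so the order depends on the annotation. Before division by length Rrm1 was 544 CPM and Rrm2 183 CPM. Rrm2 was followed by Mcm7, Mcm6, Mcm3 and Rrm1 (55.3, 51.9, 50.9 and 49.4 CPM per kb). Neighbours from Mcm7 to Rrm1 in this order lay closer together than the spread between samples, with Mcm7 at 245 ± 36.1 CPM and Mcm6 at 242 ± 31.2 CPM before division by length (SD, n = 4). The GINS subunits were unequal, with Gins4 at 25.7 CPM per kb and Gins1, Gins3 and Gins2 at 5.29, 4.45 and 2.07. Summed over the 39 genes, Control basal samples held 3491 ± 335 CPM (SD, n = 4), FoxK1 KD 3024 ± 104, FoxK2 KD 3310 ± 105 and DKD 3229 ± 89.9 CPM. After insulin the sums were 4843 ± 85.4 CPM in Control and 4039 ± 157 CPM in DKD samples (n = 3 each), and 4178 ± 125 CPM in FoxK1 KD and 4464 ± 255 CPM in FoxK2 KD samples (n = 4 each). The lowest sum of any insulin sample was 3912 CPM and the highest of any basal sample 3725 CPM, so that basal and insulin samples did not overlap. In bulk RNA a larger share of cells in S phase and more RNA per cell cannot be told apart.

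**Figure D1:**
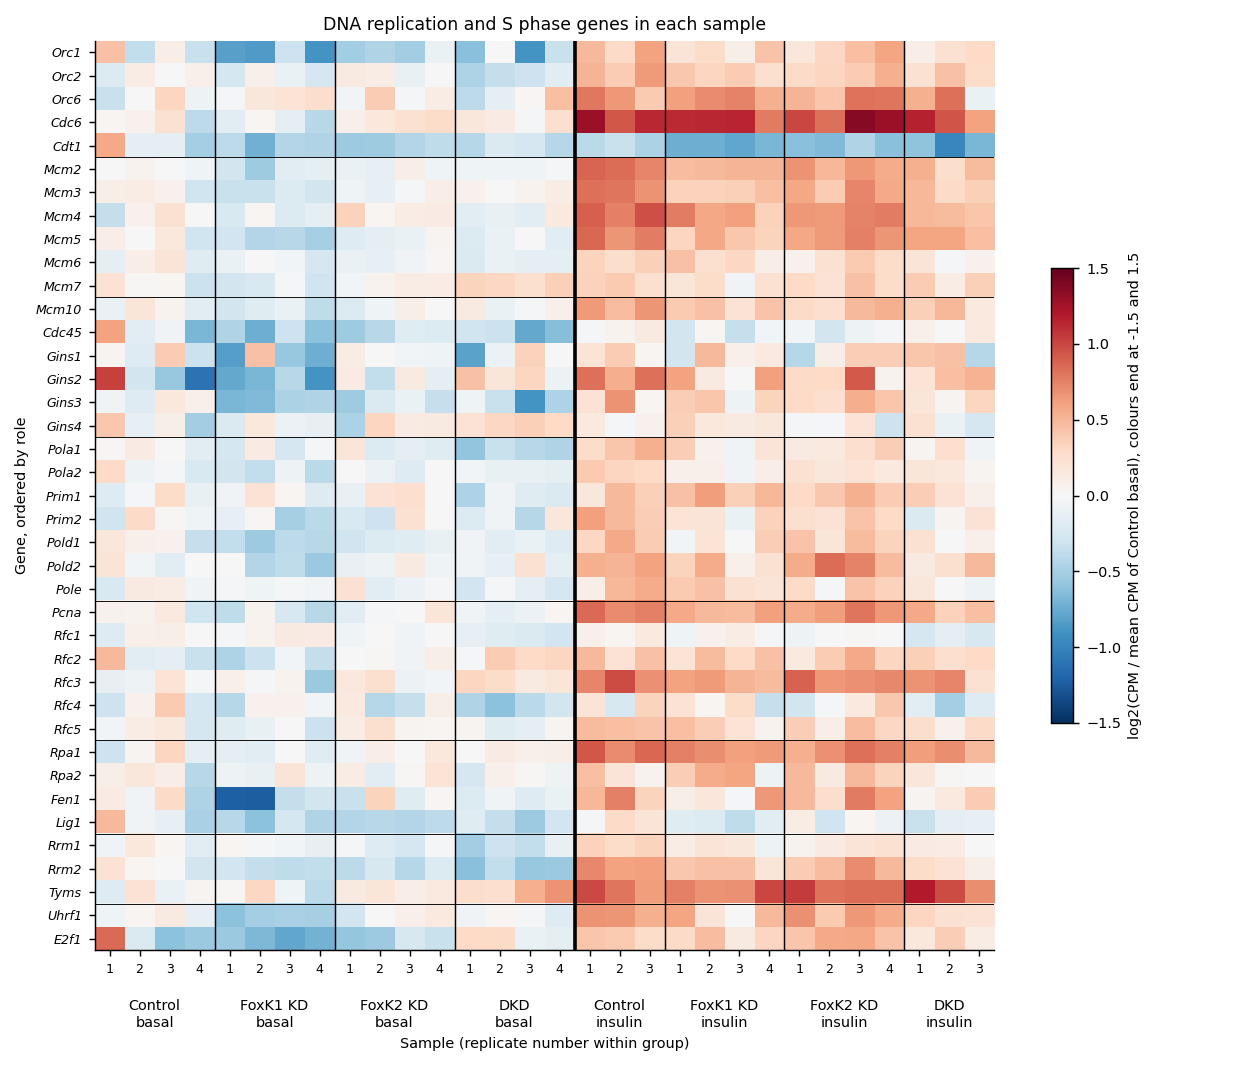
Level of each of the 39 genes (rows, grouped by role) in each of the 30 samples (columns, by group and replicate), as the log2 ratio of its CPM to the mean CPM of the 4 Control basal samples. The right side, after insulin, is red for most genes in all 4 genotypes, Cdt1 is blue there, and Gins2 and E2f1 are red and Cdt1 is orange in Control basal replicate 1.

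The first question was how the genes responded to insulin in Control cells. Of the 39 genes 29 were upregulated and 1 was downregulated at an adjusted p under 0.05 (quasi-likelihood F test in edgeR, adjusted over all 11368 genes tested by the Benjamini-Hochberg method), compared to 12.4% of all genes tested that were upregulated and 13.1% downregulated. The median log2 fold change of the members was 0.46, and -0.01 over all genes tested, and 38 of the 39 had a positive value. For 24 members every insulin sample lay above every basal sample, which held for 12.5% of all genes tested. With only the 2 groups compared in the fit 16 members were upregulated and none downregulated, all 16 among the 30, and 14 of the 29 rose more than 1.5-fold. The shares of all genes tested under these 2 rules are not given here. Leaving out 1 sample at a time gave 23 to 30 changed members, and 20 kept their call in all 7 of these fits. Here and below, the shares of all genes tested in fits with 1 sample left out are not given. Markers of other cell types also moved. The 7 leukocyte markers summed to 4.1 to 6.3 CPM after insulin and 8.2 to 12.9 CPM at basal, with Csf1r, the 1 of them that was tested, downregulated (-1.70 ± 0.26), and of the 5 bile duct markers, with sums of 2055 to 2587 CPM after insulin and 1691 to 2153 CPM at basal, Spp1 was upregulated (0.58 ± 0.13) and Sox9 downregulated (-0.47 ± 0.09). Their part in the result was not tested.

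Among the licensing factors 4 of 5 were upregulated in Control cells. Cdc6, the helicase loader (chr11:98907801-98923940, plus strand), was 42.8, 44.008, 49.4 and 32.1 CPM in the 4 basal samples and 104, 80.6 and 92.1 CPM in the 3 insulin samples, a log2 fold change of 1.14 ± 0.14 (SE), edgeR adjusted p = 1.1e-07. Every insulin value was above every basal value, and the log2 fold change was the largest of any member in this comparison. Orc2, a subunit of the origin recognition complex, was 68.046, 84.5, 78.4 and 82.9 CPM at basal and 112, 102 and 122 CPM after insulin (0.51 ± 0.10, SE). Orc6 changed by 0.62 ± 0.18 and Orc1, the cell-cycle-regulated subunit, by 0.49 ± 0.18 on the log2 scale, and the call of Orc1 was lost without any of 4 of the 7 samples. Cdt1, the other loading factor, was the downregulated gene. It was 182, 111, 111 and 85.7 CPM at basal and 92.8, 96.7 and 88.026 CPM after insulin (log2 fold change of -0.39 ± 0.14 (SE), edgeR adjusted p = 0.0354). The groups overlapped, and without the high Control basal replicate 1 the value was -0.14 ± 0.10 with an edgeR adjusted p of 0.33. The call in Control cells was lost without any of 4 of the 7 samples, namely that one and each of the 3 insulin samples.

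All 6 subunits of the Mcm helicase were upregulated in Control cells, to unequal degrees. Mcm2 (chr6:88883474-88898780, minus strand) was 156, 161, 156 and 148 CPM at basal and 283, 278 and 257 CPM after insulin, a log2 fold change of 0.81 ± 0.08 (SE), edgeR adjusted p = 2.88e-09. Mcm4 was 47.9, 64.3, 71.9 and 61.6 CPM at basal and 114, 104 and 120.4 after insulin (log2 fold change of 0.87 ± 0.11 (SE), edgeR adjusted p = 1.54e-07). Mcm5 (chr8:75109569-75128439, plus strand) was 156, 146, 162 and 118 CPM at basal and 265, 231 and 248 CPM after insulin (log2 fold change of 0.77 ± 0.09 (SE), edgeR adjusted p = 5.91e-08). In each of these the samples of the groups did not overlap. Mcm2, Mcm3, Mcm4 and Mcm5 changed by 0.77 to 0.87 on the log2 scale, while Mcm6 and Mcm7 changed by 0.32 ± 0.09 and 0.33 ± 0.10, and the difference between the subunits was not tested. The Mcm7 call was lost without Control basal replicate 4 (0.23 ± 0.09, edgeR adjusted p = 0.062). Of the factors that activate the helicase, Mcm10 was upregulated (0.60 ± 0.11) and so was Gins2 (0.82 ± 0.28, and 1.39 ± 0.23 without Control basal replicate 1, edgeR adjusted p = 1.19e-05), but the Gins2 call was lost without any of 5 of the 7 samples, with values down to 0.53. Cdc45 (0.08 ± 0.17), Gins1, Gins3 and Gins4 did not pass.

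All 7 genes of primase and the replicative polymerases were upregulated, by 0.34 (Prim1 and Pola2) to 0.55 (Pold2) on the log2 scale. The call of Prim1 was lost without any of 5 of the 7 samples, and those of Prim2 and Pole without 1 each. Pola1, the catalytic subunit of polymerase alpha (chrX:93304767-93632155, minus strand), was 78.3, 83.8, 77.2 and 69.1 CPM at basal and 93.6, 103 and 112 CPM after insulin (log2 fold change of 0.42 ± 0.11 (SE), edgeR adjusted p = 0.0045). Pcna (chr2:132249162-132253314, minus strand) was 103, 102, 108 and 79.999 CPM at basal and 176, 161 and 166 CPM after insulin (log2 fold change of 0.78 ± 0.10 (SE), edgeR adjusted p = 3.68e-07). Every insulin sample was above every basal sample for both genes. The annotation has 2 Pcna pseudogenes that drew 5353 counts over all samples against 12801 for Pcna, so reads may have been split between them. Of the clamp loader subunits Rfc2, Rfc3 and Rfc5 were upregulated, with Rfc3 highest at 0.80 ± 0.14 and the call of Rfc2 lost without any of 5 of the 7 samples, and Rfc1 and Rfc4 did not pass.

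Rpa1, the large subunit of the single-strand binding protein, was 98.4, 126, 153 and 112 CPM at basal and 233, 199 and 222 CPM after insulin (log2 fold change of 0.84 ± 0.10 (SE), edgeR adjusted p = 7.86e-08). Fen1, the flap endonuclease of Okazaki fragment maturation, was upregulated (0.56 ± 0.20, a call lost without any of 4 of the 7 samples), and DNA ligase Lig1 was not (log2 fold change of 0.17 ± 0.13 (SE), edgeR adjusted p = 0.378). Without Control basal replicate 1, in which Lig1 was 201 CPM compared to 102 to 138 in the others, Lig1 passed (0.37 ± 0.11, edgeR adjusted p = 0.00811). All 3 genes of nucleotide supply were upregulated. Rrm2 (chr12:24708241-24714146, plus strand) was 213, 187, 182 and 152 CPM at basal and 302, 278 and 281 CPM after insulin (log2 fold change of 0.65 ± 0.09 (SE), edgeR adjusted p = 2.29e-06). Tyms, thymidylate synthase (chr5:30058202-30073617, minus strand), was 22.4, 29.8, 23.8 and 26.2 CPM at basal and 50.6, 44.6 and 39.6 CPM after insulin (log2 fold change of 0.81 ± 0.14 (SE), edgeR adjusted p = 2.75e-05). The groups overlapped in neither gene. Rrm1, the large reductase subunit, changed by 0.32 ± 0.09. Uhrf1, which couples maintenance of DNA methylation to replication (chr17:56303321-56323486, plus strand), was 86.8, 93.016, 100.2 and 83.7 CPM at basal and 145, 143 and 132 CPM after insulin (log2 fold change of 0.63 ± 0.11 (SE), edgeR adjusted p = 2.97e-05). The transcription factor E2f1 (chr2:154559407-154569892, minus strand) was 62.7, 29.8, 22.6 and 23.6 CPM at basal and 46.1, 45.5 and 41.8 CPM after insulin, and did not pass in the fit of all samples (log2 fold change of 0.40 ± 0.19 (SE), edgeR adjusted p = 0.136). The 3 other basal samples all lay below the insulin samples, and without Control basal replicate 1 E2f1 passed (0.82 ± 0.13, edgeR adjusted p = 5.35e-06).

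**Figure D2:**
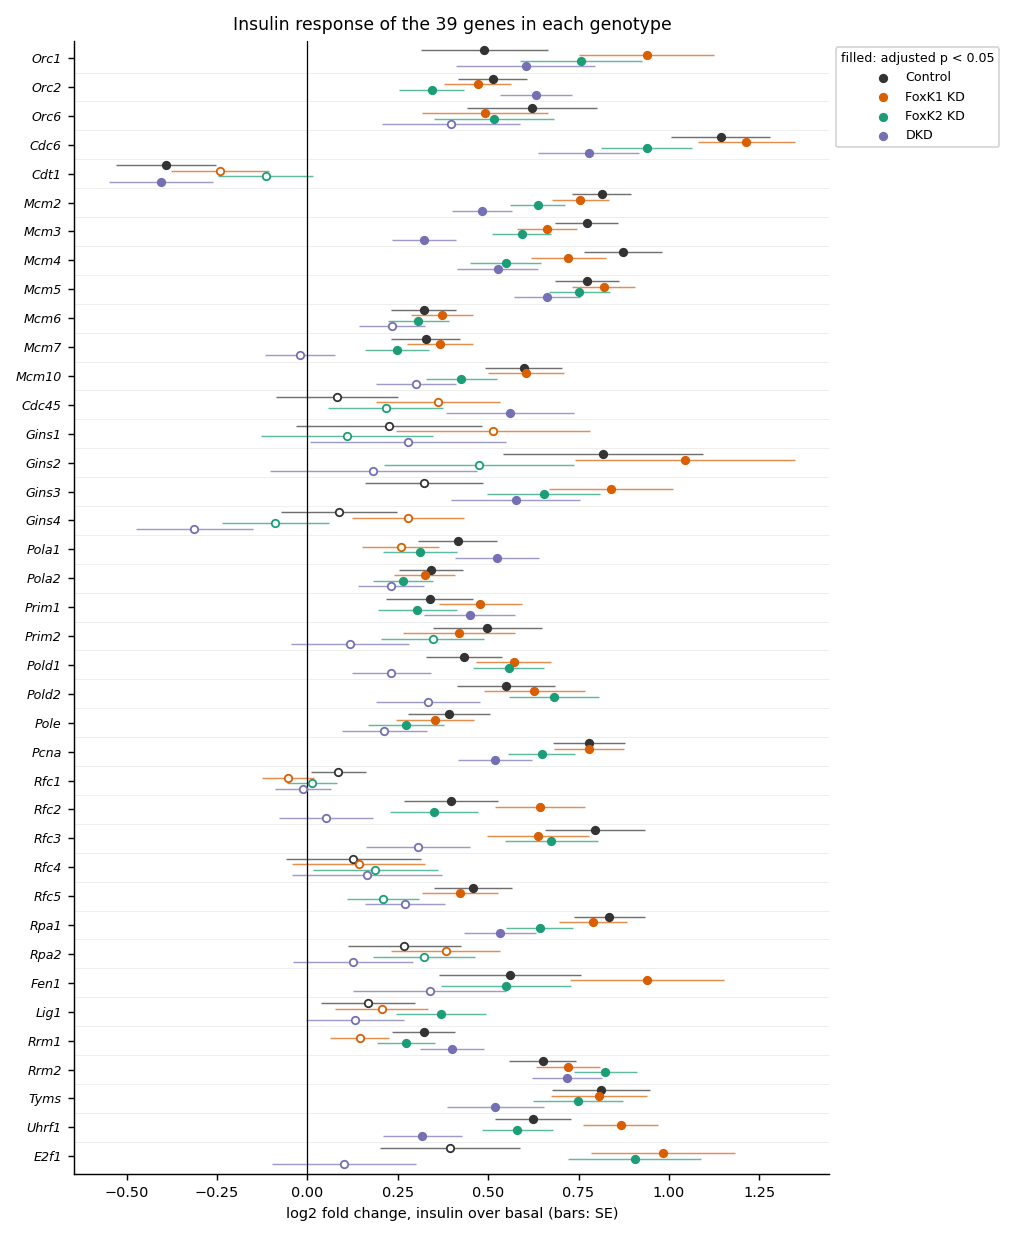
Log2 fold change of each of the 39 genes after insulin compared to basal in each of the 4 genotypes, with SE bars and filled points for an edgeR adjusted p under 0.05. Most points lie to the right of 0 in all 4 genotypes, Cdc6 lies farthest right in Control cells (1.14), Cdt1 lies left of 0, and the DKD points of Mcm3 (0.32) and Mcm7 (-0.02) lie left of those of the other genotypes.

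The knockdown cells answered the same question, each against its own basal samples. In FoxK1 KD cells 29 of the 39 genes were upregulated and none downregulated, compared to 16.2% upregulated and 15.4% downregulated among all genes tested, with a median log2 fold change of 0.57. In FoxK2 KD cells 29 were upregulated and none downregulated (14.4% and 13.7% of all genes), with a median of 0.43. In DKD cells 17 were upregulated and 1, Cdt1, downregulated (8.31% and 7.99% of all genes), with a median of 0.32. Members in which every insulin sample was above every basal sample numbered 27 in FoxK1 KD, 26 in FoxK2 KD and 23 in DKD cells, compared to 16.0%, 15.2% and 14.3% of all genes tested. Leaving out 1 sample at a time gave 26 to 30 changed members in FoxK1 KD, 22 to 27 in FoxK2 KD and 11 to 17 in DKD cells, where the lowest count, 11, came without DKD insulin replicate 1. The call was kept in every one of these fits by 26 of the 29 genes in FoxK1 KD, 19 of the 29 in FoxK2 KD and 10 of the 18 in DKD cells. Csf1r was downregulated after insulin in the knockdowns as well (-1.01 ± 0.18 in FoxK1 KD, -1.59 ± 0.22 in FoxK2 KD and -1.495 ± 0.21 in DKD cells), and Spp1 was upregulated (0.56 ± 0.12, 0.38 ± 0.12 and 0.52 ± 0.13). The other bile duct markers were mixed, with Krt19 upregulated in FoxK1 KD (0.51 ± 0.12) and FoxK2 KD cells (0.39 ± 0.12) and Krt7 downregulated in FoxK2 KD cells (-0.45 ± 0.17). The part of these markers was not tested. With a rise of more than 1.5-fold also required, 19, 13 and 5 members remained. The shares of all genes tested under that rule are not given here. At an adjusted p under 0.25, 26 members were upregulated and 2 downregulated in DKD cells, compared to 18.7% and 18.6% of all genes tested.

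The 4 insulin comparisons share no samples but come from 1 fit with 1 estimate of the spread. All but that of DKD cells cross the sets of libraries. The shares of all genes tested that were called in all 4 genotypes, or in at least 1, are not given here. Of the 39 genes 13 were upregulated in all 4 genotypes: Orc1, Orc2, Cdc6, Mcm2, Mcm3, Mcm4, Mcm5, Prim1, Pcna, Rpa1, Rrm2, Tyms and Uhrf1. For 8 of them (Orc2, Cdc6, Mcm2, Mcm4, Mcm5, Pcna, Rpa1 and Rrm2) the call held in all 4 genotypes with any 1 sample left out. The number upregulated in at least 1 genotype was 33, and Gins1, Gins4, Rfc1, Rfc4 and Rpa2 were called in none. Of these Rfc1 had the smallest standard errors, with values from -0.05 ± 0.07 in FoxK1 KD to 0.09 ± 0.08 in Control cells.

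Cdc6 had the largest change in each knockdown as well. It was 37.6, 42.9, 38.3 and 31.6 CPM at basal and 91.2, 92.2, 92.7 and 72.007 CPM after insulin in FoxK1 KD cells (log2 fold change of 1.21 ± 0.13 (SE), edgeR adjusted p = 1.71e-08). In FoxK2 KD cells it was 44.5, 46.8, 49.3 and 50.994 CPM at basal and 84.2, 74.5, 108 and 102 CPM after insulin (log2 fold change of 0.94 ± 0.13 (SE), edgeR adjusted p = 7.49e-07). In DKD cells it was 47.4, 45.7, 41.2 and 49.8 CPM at basal and 93.9, 80.9 and 64.1 CPM after insulin (log2 fold change of 0.78 ± 0.14 (SE), edgeR adjusted p = 0.000139). The groups did not overlap in any genotype. The second largest change in FoxK1 KD cells was that of Gins2, from 4.98, 5.28, 6.35 and 4.55 to 12.9, 9.33, 8.47 and 12.991 CPM (log2 fold change of 1.05 ± 0.30 (SE), edgeR adjusted p = 0.00817), at the lowest level per kilobase of all members. E2f1 was upregulated in both single knockdowns. It was 23.5, 21.8, 20.2 and 21.1 CPM at basal and 42.1, 47.8, 38.1 and 43.4 CPM after insulin in FoxK1 KD cells (log2 fold change of 0.98 ± 0.20 (SE), edgeR adjusted p = 0.000259). In FoxK2 KD cells it was 23.2, 23.8, 29.4 and 27.5 CPM at basal and 46.1, 51.2, 51.9 and 46.6 CPM after insulin (log2 fold change of 0.91 ± 0.18 (SE), edgeR adjusted p = 0.000292). The groups did not overlap in either knockdown. In DKD cells E2f1 was 42.5, 42.2, 32.4 and 31.3 CPM at basal and 38.8, 44.9 and 37.4 CPM after insulin, overlapping groups that did not pass (log2 fold change of 0.10 ± 0.20 (SE), edgeR adjusted p = 0.782).

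Rrm2 was the third largest change in FoxK2 KD cells, from 139.5, 155, 136 and 159 to 238, 252, 299 and 257 CPM (log2 fold change of 0.82 ± 0.09 (SE), edgeR adjusted p = 8.92e-09). In DKD cells it was the second largest, from 119, 142, 124 and 125 to 221, 213 and 195 CPM (log2 fold change of 0.72 ± 0.10 (SE), edgeR adjusted p = 1.68e-06). Mcm5 followed in DKD cells, from 126, 136, 145 and 130.4 to 219, 219 and 199 CPM (log2 fold change of 0.66 ± 0.09 (SE), edgeR adjusted p = 2.76e-06). Every insulin value was above every basal value in these 3 cases. Of the 6 Mcm subunits all were upregulated in both single knockdowns and 4 in DKD cells, where Mcm6 (0.23 ± 0.09) and Mcm7 (-0.02 ± 0.10) did not pass. Mcm7 was 307, 304, 288 and 313 CPM in DKD basal and 318, 263 and 314 in DKD insulin samples, with overlap. Of primase and polymerase genes 6 of 7 were upregulated in each single knockdown and 2 of 7, Pola1 and Prim1, in DKD cells. Uhrf1 changed by 0.87 ± 0.10 in FoxK1 KD and 0.58 ± 0.10 in FoxK2 KD cells. In DKD cells it was 87.6, 92.8, 89.8 and 79.3 CPM at basal and 114, 107 and 106 CPM after insulin (log2 fold change of 0.32 ± 0.11 (SE), edgeR adjusted p = 0.0409), a call that was lost without any of 6 of the 7 samples. Tyms changed by 0.81 ± 0.13, 0.75 ± 0.13 and 0.52 ± 0.13 and Pcna by 0.78 ± 0.10, 0.65 ± 0.09 and 0.52 ± 0.10 in the 3 knockdowns.

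Cdt1 was again the exception. In DKD cells it was 91.023, 105, 103 and 90.6 CPM at basal and 80.2, 61.9 and 76.045 CPM after insulin, without overlap (log2 fold change of -0.41 ± 0.14 (SE), edgeR adjusted p = 0.0495), but this call was lost with any 1 sample left out and under upper-quartile scaling. In FoxK1 KD and FoxK2 KD cells its values were -0.24 ± 0.14 and -0.12 ± 0.13, which did not pass. Cdc45, which in the other 3 genotypes did not pass, was upregulated in DKD cells (log2 fold change of 0.56 ± 0.18 (SE), edgeR adjusted p = 0.0269), from 27.6, 27.1, 19.9 and 21.8 to 35.6, 34.1 and 37.6 CPM, a call lost without any of 4 of the 7 samples.

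Whether the insulin response differed between genotypes was tested as an interaction. For FoxK1 KD and FoxK2 KD against Control no member passed in edgeR (0.0% of all genes tested), DESeq2 or limma-voom, with 2 and 1 members at an unadjusted p under 0.05, compared to 13.4% and 5.5% of all genes tested. For DKD against Control no member passed in edgeR, compared to 1.0% of all genes tested with a larger and 0.537% with a smaller response in DKD cells, with 6 members (15.4%) at an unadjusted p under 0.05, all with a smaller response in DKD. That share was near the 14.6% of all genes tested. At an adjusted p under 0.25 there were 4, Mcm3, Mcm2, Mcm7 and Rfc3, all with a smaller response, as had 4.05% of all genes tested. Mcm3 came nearest, with a difference in response of -0.45 ± 0.13 on the log2 scale (edgeR adjusted p = 0.0541). It passed with DESeq2 (adjusted p = 0.0207) and limma-voom (adjusted p = 0.0496). Mcm3 was 204, 206, 199.7 and 155 CPM in Control basal and 339.6, 333 and 305 CPM in Control insulin samples, while in DKD cells it was 199, 191, 199 and 207 CPM at basal and 269, 233 and 244 CPM after insulin. The DKD insulin values lay above the DKD basal values and below all Control insulin values. The differences for Mcm2 (-0.33 ± 0.12), Mcm7 (-0.35 ± 0.14) and Rfc3 (-0.49 ± 0.20) had edgeR adjusted p of 0.146, 0.201 and 0.223. Without Control basal replicate 1, 4 members passed with a smaller response in DKD cells, namely Mcm3 (-0.49 ± 0.12, edgeR adjusted p = 0.0232), E2f1 (-0.73 ± 0.17, 0.0155), Rfc2 (-0.55 ± 0.15, 0.0337) and Gins2 (-1.21 ± 0.31, 0.0227). The share of all genes tested that passed in that fit is not given here, so the 4 cannot be set against it. Without Control basal replicate 2 or DKD insulin replicate 1, 1 member, Mcm3, passed. The median of the interaction over the 39 genes ranged from -0.25 to -0.10 with 1 sample left out. Control against DKD crosses the sets of libraries at basal and not after insulin, and the part of that in these values was not tested. Across genes the difference in response, DKD minus Control, was correlated with GC content (Spearman's rho -0.307 over 11346 genes, which are not independent replicates).

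The next question was what the knockdowns did without insulin. In FoxK1 KD cells at basal 13 of the 39 genes were downregulated and none upregulated, compared to 4.71% of all genes tested that were downregulated and 3.39% upregulated. The median log2 fold change was -0.24, and -0.01 over all genes tested, and 35 of the 39 values were negative. For 5 genes (Mcm2, Gins3, Pold1, Rrm2 and Uhrf1) every FoxK1 KD sample lay below every Control sample, compared to 4.66% of all genes tested. The count depended on few samples. It was 3 (Mcm5, Pold1 and Uhrf1) without Control basal replicate 1, 7, 5 and 8 without FoxK1 KD basal replicates 1, 2 and 4, and 1 (Uhrf1) when only these 2 groups were fitted. The shares of all genes tested in these fits are not given here. At an adjusted p under 0.25 the count of members was 20, compared to 14.9% of all genes tested.

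Uhrf1 was 86.8, 93.016, 100.2 and 83.7 CPM in Control and 59.3, 63.7, 64.7 and 64.5 CPM in FoxK1 KD basal samples (log2 fold change of -0.53 ± 0.10 (SE), edgeR adjusted p = 0.00128). The values of the groups did not overlap, and the call held with any 1 sample left out. Mcm5 was 156, 146, 162 and 118 CPM in Control and 119, 107, 109 and 103 CPM in FoxK1 KD samples (log2 fold change of -0.40 ± 0.09 (SE), edgeR adjusted p = 0.00297), with 1 FoxK1 KD value above the lowest Control value. Pold1, the catalytic subunit of polymerase delta, was 80.2, 75.3, 74.7 and 56.2 CPM in Control and 55.7, 49.2, 54.6 and 53.8 CPM in FoxK1 KD samples (log2 fold change of -0.41 ± 0.10 (SE), edgeR adjusted p = 0.00931), without overlap. These 2 calls also held with any 1 sample left out, at adjusted p up to 0.0487 for Pold1 without Control basal replicate 1. The largest changes in size were those of Fen1, Orc1 and E2f1. Fen1 was 14.5, 12.8, 16.1 and 9.64 CPM in Control and 5.66, 5.61, 10.4 and 10.971 CPM in FoxK1 KD samples (log2 fold change of -0.67 ± 0.20 (SE), edgeR adjusted p = 0.0382). Orc1 was 20.981, 12.002, 16.6 and 12.3 CPM in Control and 8.83, 8.58, 12.5 and 8.29 CPM in FoxK1 KD samples (log2 fold change of -0.66 ± 0.18 (SE), edgeR adjusted p = 0.0198). E2f1 was 62.7, 29.8, 22.6 and 23.6 CPM in Control and 23.5, 21.8, 20.2 and 21.1 CPM in FoxK1 KD samples (log2 fold change of -0.64 ± 0.19 (SE), edgeR adjusted p = 0.0352). The groups overlapped for all 3. Without Control basal replicate 1 E2f1 was -0.21 ± 0.13 with an edgeR adjusted p of 0.432, Orc1 -0.49 ± 0.18 (0.131) and Fen1 -0.61 ± 0.22 (0.111), none of which passed. Fen1 exons overlap those of Gm10143 and Tmem258 on the other strand, and the strand setting of the counting is not given.

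The other downregulated genes were Cdt1 (-0.48 ± 0.13), Mcm2 (-0.27 ± 0.08), Mcm3 (-0.28 ± 0.08), Gins3 (-0.57 ± 0.16), Pola2 (-0.27 ± 0.08), Lig1 (-0.42 ± 0.12) and Rrm2 (-0.35 ± 0.09). None of these 7 passed without Control basal replicate 1, where Rrm2 was -0.26 ± 0.09 (edgeR adjusted p = 0.0856). By role the downregulated genes were 2 of 5 licensing factors, 3 of 6 Mcm subunits, 1 of 6 activation factors, 2 of 7 primase and polymerase genes, none of 6 clamp and loader genes, 2 of 4 in strand maturation, 1 of 3 in nucleotide supply, and both regulators. The 7 leukocyte markers summed to 17.6 to 22.1 CPM in FoxK1 KD and 8.2 to 12.9 CPM in Control basal samples, where 1 of the 7, Csf1r, passed the filter and was upregulated (1.02 ± 0.16) and Adgre1 and Cd3e were at 0. The 5 bile duct markers summed to 1339 to 1742 CPM compared to 1691 to 2153, with Krt19 (-0.70 ± 0.12) and Sox9 (-0.40 ± 0.08) downregulated and Epcam at 0. Of the 4 bile duct markers tested, 1 went the other way, with a value of 0.41. It was not called, but had an adjusted p under 0.25. The part of the leukocyte and bile duct markers in these results was not tested.

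**Figure D3:**
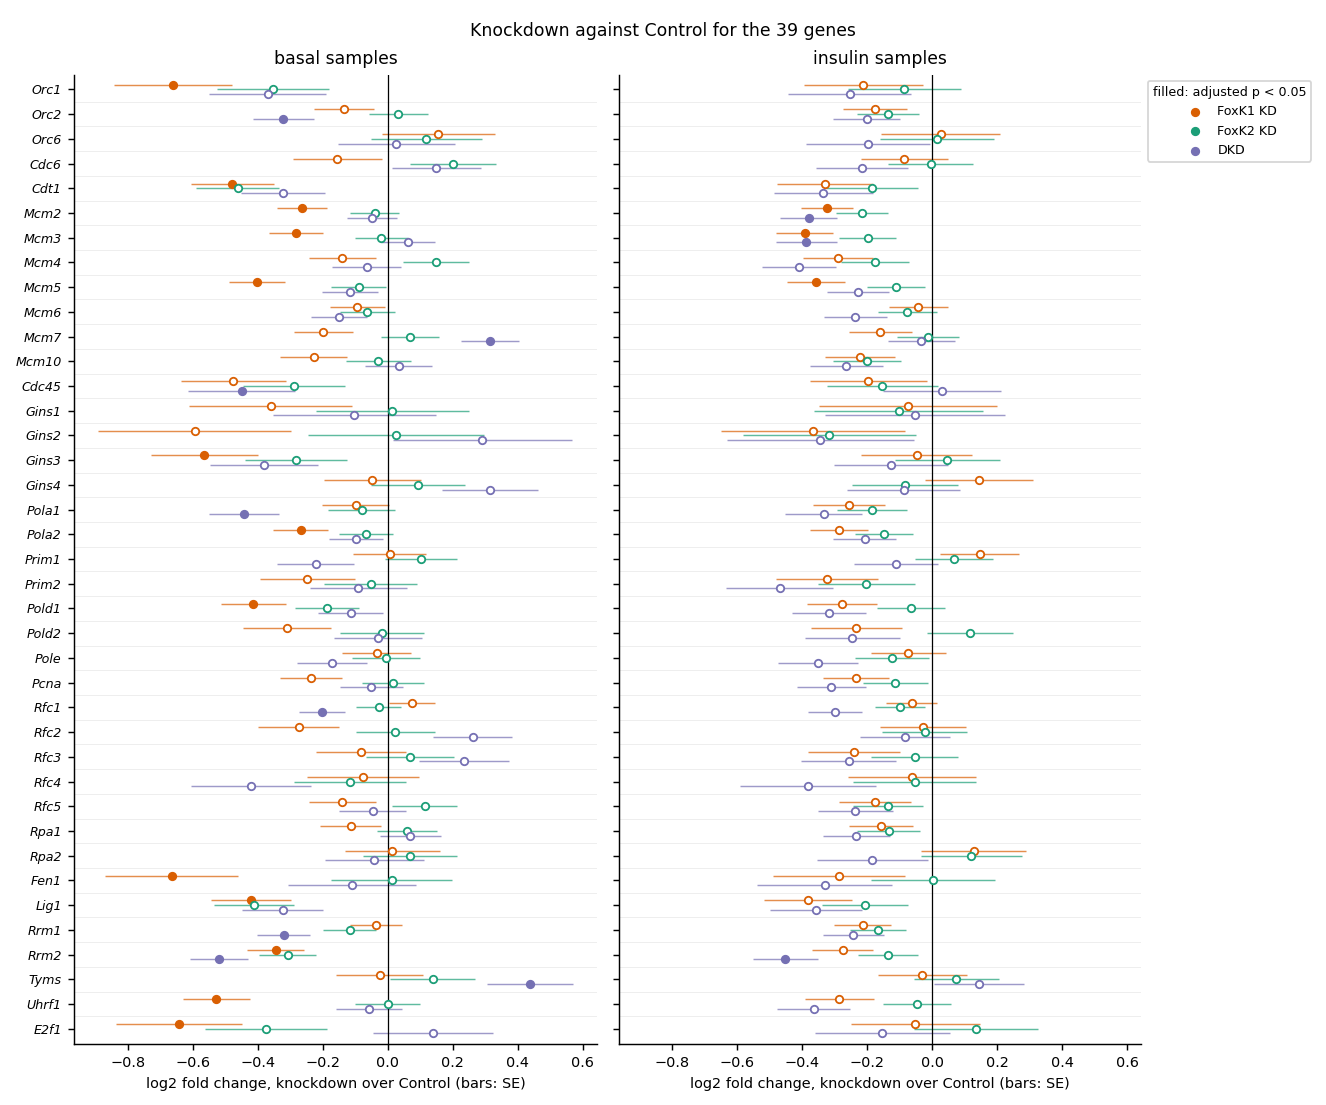
Log2 fold change of each of the 39 genes in FoxK1 KD, FoxK2 KD and DKD cells compared to Control cells in basal (left) and insulin-treated (right) samples, with SE bars and filled points for an edgeR adjusted p under 0.05. At basal the FoxK1 KD points lie mostly left of 0 and DKD points on both sides, with Mcm7 (0.31) right and Rrm2 (-0.52) left. After insulin the points of FoxK1 KD and DKD cells lie mostly left of 0.

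In FoxK2 KD cells at basal no member passed in edgeR, DESeq2 or limma-voom (0.211% of all genes tested were upregulated and 0.167% downregulated in edgeR), 4 (10.3%) had an unadjusted p under 0.05, near the 11.2% of all genes tested, and the median log2 fold change was -0.02. The lowest adjusted p were those of Cdt1 (-0.46 ± 0.13, 0.0936), Rrm2 (-0.31 ± 0.09, 0.109) and Lig1 (-0.41 ± 0.12, 0.136), the 3 members under 0.25 in edgeR, all lower in FoxK2 KD cells, as were 2.01% of all genes tested. Their FoxK2 KD values were 83.965, 84.2, 90.1 and 93.6 CPM for Cdt1, 139.5, 155, 136 and 159 for Rrm2 and 105, 108, 106 and 109 for Lig1, and none of the 39 genes separated the groups, compared to 2.5% of all genes tested with every FoxK2 KD sample higher and 2.17% with every one lower. Leaving out 1 sample gave 0 to 3 members, with 3 without Control basal replicate 4. The standard errors of the Mcm subunits were 0.08 to 0.10 in this comparison, with values from -0.09 (Mcm5) to 0.15 (Mcm4) on the log2 scale.

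In DKD cells at basal 6 of the 39 genes were downregulated and 2 upregulated, compared to 10.8% downregulated and 10.3% upregulated among all genes tested. The members' shares, 15.4% and 5.1%, lay near the share of all genes for downregulated and below it for upregulated genes, a comparison that was not tested. At an adjusted p under 0.25 there were 13 downregulated and 5 upregulated members, compared to 22.4% and 21.2% of all genes tested. The median log2 fold change was -0.09. Rrm2 was 213, 187, 182 and 152 CPM in Control and 119, 142, 124 and 125 CPM in DKD samples (log2 fold change of -0.52 ± 0.09 (SE), edgeR adjusted p = 9.91e-05), without overlap. Pola1 was 78.3, 83.8, 77.2 and 69.1 CPM in Control and 51.1, 61.1, 57.8 and 56.5 CPM in DKD samples (log2 fold change of -0.44 ± 0.11 (SE), edgeR adjusted p = 0.00311), also without overlap. Together with Rrm1 (-0.32 ± 0.08) these calls held with any 1 sample left out. Cdc45 was 51.3, 30.5, 32.7 and 21.1 CPM in Control and 27.6, 27.1, 19.9 and 21.8 CPM in DKD samples (log2 fold change of -0.45 ± 0.17 (SE), edgeR adjusted p = 0.0478), with overlap, and its call was lost without any of 4 of the 8 samples. Orc2 (-0.32 ± 0.09) and Rfc1 (-0.20 ± 0.07) were the other downregulated genes.

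The upregulated genes in DKD cells were Tyms and Mcm7. Tyms was 22.4, 29.8, 23.8 and 26.2 CPM in Control and 30.7, 30.5, 37.018 and 40.8 CPM in DKD basal samples (log2 fold change of 0.44 ± 0.13 (SE), edgeR adjusted p = 0.0154). Mcm7 was 284, 249, 249.6 and 196 CPM in Control and 307, 304, 288 and 313 CPM in DKD basal samples (log2 fold change of 0.31 ± 0.09 (SE), edgeR adjusted p = 0.0108). The groups overlapped for neither gene, and no overlap was found for 9.61% of all genes tested in this direction and 8.78% in the other, in which 2 members, Pola1 and Rrm2, were separated. The exons of Mcm7 overlap those of Cops6 and Ap4m1 on the other strand, which drew 16631 counts over all samples against 29441 for Mcm7. Without Control basal replicate 1 there were 6 upregulated genes, among them E2f1 (0.56 ± 0.12, edgeR adjusted p = 0.00081) and Gins2 (0.85 ± 0.23, 0.00492), and 6 downregulated ones, while without DKD basal replicate 4 there were 1 and 4. With only these 2 groups in the fit 2 genes were downregulated. The shares of all genes tested in these fits are not given here, so the counts cannot be set against them. None of the 8 changed by more than 1.5-fold. This comparison crosses the sets of libraries. Across genes its log2 fold changes were correlated with GC content (Spearman's rho 0.466 over 11346 genes, which are not independent replicates), and after removal of GC and length trends 5 members were downregulated and 1 upregulated, of which only Cdc45, Rrm2 and Tyms were among the 8 called without it. The shares of all genes tested after that removal are not given here. In this comparison Csf1r (0.79 ± 0.17) and Krt7 (0.74 ± 0.16) were upregulated and Sox9 (-0.45 ± 0.08) downregulated, with leukocyte markers summing to at least 15.7 CPM in every DKD and at most 12.9 CPM in every Control sample, and their part was not tested.

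**Figure D4:**
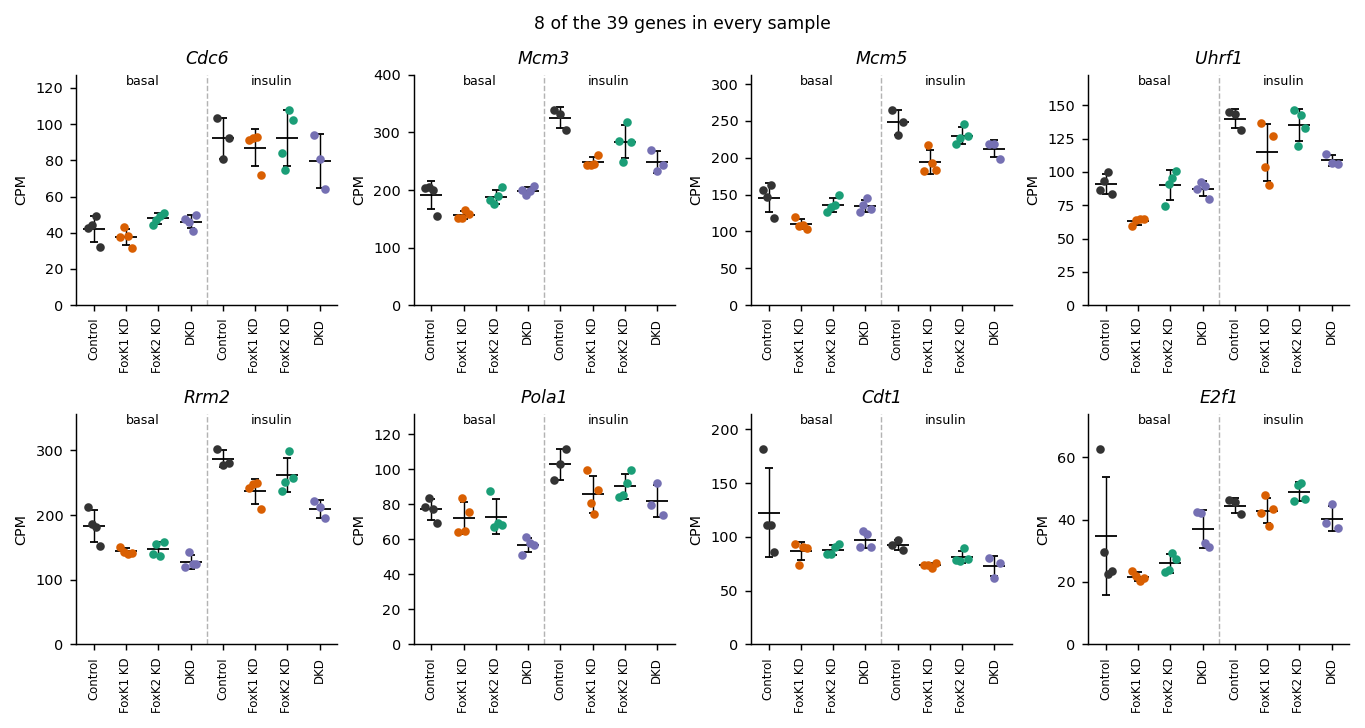
CPM of 8 genes in every sample of the 8 groups (points), with the mean and SD of each group (black bar and whiskers), basal groups to the left and insulin groups to the right of the dashed line. Cdc6, Mcm3, Mcm5, Uhrf1 and Rrm2 are higher after insulin, the FoxK1 KD basal values of Uhrf1 (59.3 to 64.7 CPM) lie below those of Control (83.7 to 100.2), and 1 Control basal sample lies far above the others for Cdt1 and E2f1.

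After insulin the genotypes were compared again, with Control insulin samples as reference in all 3 comparisons. In FoxK1 KD cells 3 of the 39 genes were downregulated and none upregulated, compared to 1.72% and 1.86% of all genes tested, with a median of -0.21 and 15 members (38.5%) at an unadjusted p under 0.05, compared to 17.5% of all genes tested. Of the markers of other cell types, Csf1r, the 1 leukocyte marker tested, was upregulated (1.71 ± 0.27). Of 4 bile duct markers tested Krt7 was upregulated (0.75 ± 0.19), while the other 3 had negative values and were not called (median of the 4 -0.07). The part of these markers in the results was not tested. All 3 called members were Mcm subunits. Mcm3 was 339.6, 333 and 305 CPM in Control and 244, 243, 245 and 261 CPM in FoxK1 KD insulin samples (log2 fold change of -0.39 ± 0.09 (SE), edgeR adjusted p = 0.00703). Mcm5 was 265, 231 and 248 CPM in Control and 181, 217, 193 and 184 CPM in FoxK1 KD samples (log2 fold change of -0.36 ± 0.09 (SE), edgeR adjusted p = 0.0195). Mcm2 was 283, 278 and 257 CPM in Control and 214, 217, 220.1 and 220.1 CPM in FoxK1 KD samples (log2 fold change of -0.33 ± 0.08 (SE), edgeR adjusted p = 0.0191). The groups did not overlap for these 3 genes, and in 12 members in all every FoxK1 KD sample lay below every Control sample, compared to 8.37% of all genes tested. Only Mcm3 was called with any 1 sample left out, and 1 member was left without Control insulin replicate 1. At an adjusted p under 0.25 there were 13 downregulated members, compared to 7.51% of all genes tested.

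In DKD cells after insulin 3 genes were downregulated and none upregulated, compared to 0.343% and 0.871% of all genes tested, with a median of -0.25, 37 of 39 values negative and 20 members (51.3%) at an unadjusted p under 0.05, compared to 12.7% of all genes tested. Rrm2 was 302, 278 and 281 CPM in Control and 221, 213 and 195 CPM in DKD samples (log2 fold change of -0.45 ± 0.10 (SE), edgeR adjusted p = 0.0137). Mcm3 was 269, 233 and 244 CPM in DKD samples, compared to the Control values given above (log2 fold change of -0.39 ± 0.09 (SE), edgeR adjusted p = 0.0269). Mcm2 was 224, 186 and 216 CPM in DKD samples (log2 fold change of -0.38 ± 0.09 (SE), edgeR adjusted p = 0.0169). The groups did not overlap for any of them, and in 20 members in all every DKD sample lay below every Control sample, compared to 8.42% of all genes tested. These calls rested on 3 samples per group. None of the 3 calls held in every fit with 1 sample left out. Only Pole was called without Control insulin replicate 1, only Rrm2 without Control insulin replicate 2 or DKD insulin replicate 2, and only Mcm2 without DKD insulin replicate 3. A fit of only these 2 groups called no member, DESeq2 called 5, and an adjusted p under 0.25 gave 13 downregulated members, compared to 2.97% of all genes tested. For the fit of 2 groups and for DESeq2 the shares of all genes tested are not given here. In FoxK2 KD cells no member passed in edgeR, DESeq2 or limma-voom (0.0088% of all genes tested were upregulated and 0.0176% downregulated in edgeR), 2 (5.13%) had an unadjusted p under 0.05, near the 6.03% of all genes tested, and the median was -0.10. In 5 members (Mcm2, Cdc45, Pola2, Rfc1 and Rrm1) every FoxK2 KD sample lay below every Control sample, compared to 3.3% of all genes tested. The 3 comparisons share their Control samples and are not independent of each other.

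Genes outside the list with related roles were read from lists of other replisome and licensing genes, replication-coupled chromatin assembly, nucleotide synthesis, the E2F and Rb pathway, G1 cyclins and CDK inhibitors, and mitosis, none of which holds a member. The shares of all genes tested given above, 12.4% upregulated and 13.1% downregulated, are the background of these counts. After insulin in Control cells 14 of 31 other replisome genes were upregulated and 1 downregulated (median 0.30 on the log2 scale), with Dna2 (1.05 ± 0.17) and Cdc7, the kinase that triggers origin firing (0.97 ± 0.16), among them. Of 10 chromatin assembly genes 8 were upregulated, such as the histone chaperone Asf1b (0.98 ± 0.15), and of 20 nucleotide synthesis genes 14 were upregulated and 1 downregulated, led by the mitochondrial folate enzyme Mthfd2 (1.49 ± 0.13). In the E2F and Rb list 10 of 23 were upregulated and 3 downregulated, with cyclin E1, Ccne1, at 7.66, 7.25, 6.70 and 7.68 CPM in basal and 21.4, 20.2 and 27.4 CPM in insulin samples (log2 fold change of 1.64 ± 0.20 (SE), edgeR adjusted p = 1.99e-07).

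Of 35 mitotic genes 4 were upregulated and 2 downregulated after insulin in Control cells (median 0.01), 6 and 6 in FoxK1 KD, 6 and 1 in FoxK2 KD, and 3 and 3 in DKD cells. The upregulated shares were near those of all genes tested (12.4%, 16.2%, 14.4% and 8.31%). At basal, 10 of the 35 were downregulated in FoxK1 KD and 16 in DKD cells with none upregulated in either, compared to 4.71% and 10.8% of all genes tested, with medians of -0.19 and -0.30, among them Plk1 in FoxK1 KD (-0.68 ± 0.15) and Top2a in DKD cells (-0.62 ± 0.08). Of 11 G1 cyclins and CDK inhibitors tested, 5 were upregulated and 2 downregulated in DKD cells at basal. The shares of all genes tested were 10.3% and 10.8%. The upregulated ones included the CDK inhibitors Cdkn2a (0.92 ± 0.18) and Cdkn2b (0.67 ± 0.16). Ccnd1 (cyclin D1) was 340.2, 455, 403 and 459 CPM in Control basal samples and 735, 665, 649 and 721 CPM in DKD basal samples (log2 fold change of 0.74 ± 0.08 (SE), edgeR adjusted p = 1.82e-08). It was 599, 629 and 580.3 CPM in Control and 659.6, 604 and 685 CPM in DKD samples after insulin. The difference in its insulin response, DKD minus Control, was -0.63 ± 0.12 (edgeR adjusted p = 0.00211), which crosses the sets of libraries at basal.

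**Figure D5:**
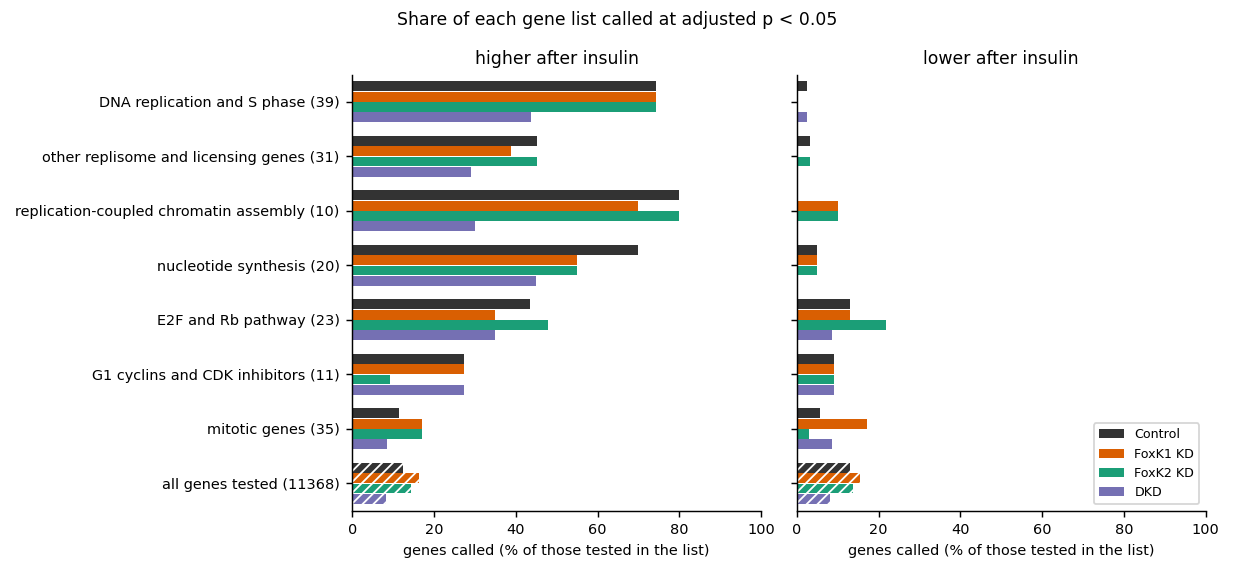
Share of the tested genes of each list that were upregulated (left) or downregulated (right) after insulin at an edgeR adjusted p under 0.05 in each genotype, with the number tested in parentheses and, hatched, all 11368 genes tested. The replication genes reach 17 of 39 in DKD cells and 29 of 39 in each of the other genotypes, while mitotic genes reach 3 to 6 of 35.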

How the data were processed

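RNA was extracted with RNeasy columns and libraries were made with a NEBNext kit, per the labels. The submitters' processing notes name CASAVA 1.8, STAR 2.4.2a, featureCounts and the mouse build GRCm38.p4. The annotation release and the strand setting are not given in the sources used here. The authors deposited raw counts per Ensembl gene, 1 file per sample, not normalized and not pooled. Of 49089 identifiers 48435 were found in GENCODE M21 (GRCm38), which gave symbols, coordinates, lengths and overlaps. Promoter windows came from RefSeq (GRCm38.p6).

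Counts of the 30 samples were fitted in 1 model of 8 groups with edgeR 4.0.16 (R 4.3.3): filterByExpr kept 11368 genes, libraries were scaled by TMM, and quasi-likelihood tests were adjusted by Benjamini-Hochberg over all genes tested. A gene was called upregulated or downregulated at an adjusted p under 0.05. The study used limma and an adjusted p of 0.25 and these were tried as alternatives, as were DESeq2 1.42.0, limma-voom (limma 3.58.1), other filters and scaling, removal of GC and length trends, a replicate block, fits of only the groups compared, a fold minimum of 1.5 and leaving out each sample. Upper-quartile scaling for the counts of calls was added after seeing the data. The standard error of a log2 fold change is its size divided by the square root of edgeR's F.

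The members, the other lists and the choice of genes given in every sample (Mcm2, Mcm5, Cdc6, Cdt1, Pcna, Pola1, Rrm2, Tyms, Uhrf1 and E2f1, plus in each comparison the 3 called members of largest fold change, and in each other list the 3 called genes of largest fold change) were made with earlier results of these data known. Per-sample values of Mcm7, Orc2 and Pold1, of Mcm3 in further groups and of Lig1 in FoxK2 KD, and the promoters shown, were chosen after values were seen. Exons of 13 members overlap another annotated gene and those of 9 a gene tested here (Orc2, Orc6, Mcm7, Cdc45, Gins2, Rfc4, Rfc5, Fen1 and Lig1), so their counts are uncertain where reads were not assigned by strand. No pair of replicates was a copy: over 42 pairs within groups, chi-square per degree of freedom was at least 1.753. Scripts were tested on simulated data.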

Additional observations from a re-analysis of the deposited data

Results flagged for a closer look

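In 11 of 108 groups of values tested (the 17 members chosen by rule to be given in every sample and the summed level of the 39 members, in each group of 4 samples) 1 sample lay apart from the others by Dixon's criterion at the 95% level. Chance flags about 1 in 20 such groups.

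In Control basal replicate 4 the summed level of the 39 genes was 2994 CPM, compared to 3609 to 3725 CPM in the other 3, and Mcm3 was 155.0 CPM, compared to 199.7 to 206.0 CPM. This sample is in every comparison with Control basal cells. In FoxK2 KD basal replicate 4 the summed level was 3468 CPM, compared to 3254 to 3259 CPM, and Orc1 was 14.51 CPM, compared to 10.8 to 11.3 CPM. In FoxK1 KD insulin replicate 4 Cdc6 was 72.01 CPM, compared to 91.24 to 92.71 CPM, and Mcm3 was 260.9 CPM, compared to 243.0 to 244.7 CPM.

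The other samples that stood apart did so for 1 gene each. Mcm2 was 153.8 CPM in DKD basal replicate 4 and 148.1 to 148.7 CPM in the others. Pola1 was 87.67 CPM in FoxK2 KD basal replicate 1 and 66.83 to 69.38 CPM in the others. Orc1 was 12.47 CPM in FoxK1 KD basal replicate 3 and 8.295 to 8.825 CPM in the others. Cdt1 was 89.49 CPM in FoxK2 KD insulin replicate 3 and 77.57 to 79.37 CPM in the others, and Tyms was 52.69 CPM in FoxK2 KD insulin replicate 1 and 44.84 to 45.81 CPM in the others.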

How the results depend on the processing

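Counts below are of members changed in either direction. Shares of all genes tested under the same settings are given only where stated above. With an adjusted p under 0.25 there were 20 in FoxK1 KD, 3 in FoxK2 KD and 18 in DKD cells at basal, 13 in FoxK1 KD and 13 in DKD cells after insulin, 28 for insulin in DKD cells and 4 for the difference in insulin response between DKD and Control. With a change above 1.5-fold also required there were 3 in FoxK1 KD and 0 in DKD cells at basal, 0 in FoxK1 KD and 0 in DKD cells after insulin, and for insulin 5 in DKD, 14 in Control, 19 in FoxK1 KD and 13 in FoxK2 KD cells. Fits of only the groups compared gave 1 in FoxK1 KD and 2 in DKD cells at basal, 16 for insulin in Control and 0 in DKD cells after insulin. Across genes, Spearman's rho of the log2 value with GC content ran from -0.307 (difference in insulin response, DKD minus Control) to 0.466 (DKD against Control at basal). It was 0.326 for insulin in FoxK1 KD cells. Removal of GC and length trends gave 2 in FoxK2 KD cells at basal and 6 in FoxK1 KD and 6 in DKD cells after insulin, and with the replicate block as well 1 in FoxK2 KD and 5 in DKD cells at basal and 5 in DKD cells after insulin. DESeq2 gave 5 in DKD cells after insulin, and 1 for the DKD difference in response, as did limma-voom (1) and a minimum of 10 counts in every sample (1). With no filter on low counts 2 passed in FoxK2 KD cells at basal. The cause of these shifts was not tested.

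With 1 sample left out, counts ran from 3 to 17 (FoxK1 KD), 0 to 3 (FoxK2 KD) and 5 to 12 (DKD) at basal, for insulin from 11 to 17 in DKD, 23 to 30 in Control, 26 to 30 in FoxK1 KD and 22 to 27 in FoxK2 KD cells, from 1 to 3 (FoxK1 KD), 0 to 0 (FoxK2 KD) and 1 to 3 (DKD) after insulin, and from 0 to 4 for the DKD difference, with 0 to 0 for the other differences. Single genes, and the median of the members under DESeq2 and upper-quartile scaling, were labelled under the alternatives. Of these values 2078 were kept, 251 no longer passed and 9 passed only there, and 0 of the single genes changed sign. A single gene was kept if its direction and side of the threshold stayed. A median was kept if it moved by less than the pooled SD between samples of a group.

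The replicate numbers were not found to pair samples. Same-numbered samples of different groups had a mean correlation of deviations of -0.0134 over 99 pairs, compared to 0.0043 over 294 pairs of different number, and 5 of 30 samples correlated best with their own number. With the replicate block in the fit 13 members were downregulated in FoxK1 KD cells at basal, 2 were upregulated and 5 downregulated in DKD cells, and insulin in Control and DKD cells gave 29 up with 1 down and 16 up with 1 down. Depth, at most 5668270 counts a sample, limits the least abundant members most.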
